A study of Mus musculus with 12 samples.

Results

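The integrated stress response and its hormones were followed through 10 genes (Asns, Atf3, Atf4, Ddit3, Trib3, Chac1, Fgf21, Gdf15, Psat1 and Cth) in mouse liver. They were chosen by gene symbol out of 57180 genes in the tables. All 10 were found, and all 10 were among the 19350 genes with enough reads to be tested. Ddit3 is listed under 2 identifiers, of which 1 had no read in any liver and was not used.

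Bulk RNA of livers from 12 mice was sequenced, with 3 mice in each of 4 groups. All of the mice carried Csa-/- and all had been injected as newborns into the cerebral ventricles with AAV9-CSA, a vector in which the ubiquitous chicken β-actin (CBA) promoter drives a human CSA cDNA. KO mice are the CX mice, a severe model of Cockayne syndrome (a disorder of transcription-coupled DNA repair), and their livers were taken at the humane endpoint. Het mice are their Csa-/- Xpa+/- littermates of matched age, treated with the same vector and without signs of disease. The methods write the KO genotype as Csa-/- Xpa+/+, while the study otherwise describes CX mice as Csa-/- Xpa-/-, so the group names KO and Het were used as given. The comparison asks how the livers of vector-treated CX mice at the endpoint differ from those of their littermates, in females and in males. All KO livers come from mice at the humane endpoint, so genotype and end-stage disease cannot be told apart here.

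The integrated stress response is a pathway in which 4 kinases sense lack of amino acids, misfolded protein in the endoplasmic reticulum, double-stranded RNA or lack of heme, and phosphorylate the translation factor eIF2. Most protein synthesis then falls, while the mRNA of the transcription factor ATF4 is translated more, and ATF4 switches on genes for amino acid synthesis and uptake. In the liver it also acts on genes of 2 hormones that report metabolic stress to the rest of the body, FGF21 and GDF15. Control of ATF4 lies largely in translation, which RNA levels do not show.

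Each liver gave 30044781 to 43634046 counts assigned to genes, and levels are given as normalized read counts (CPM, counts per 1e+06 of the scaled library size). Reads on Xpa were between 3.10 and 6.34 CPM in the Het livers and between 0.992 and 1.83 CPM in the KO livers, so no KO liver reached a Het liver. Reads on Ercc8, the gene of CSA, were higher in KO than in Het livers (log2 fold change 1.62, SE 0.175, adjusted p = 0.000173), and whether the vector's human cDNA contributes to them was not tested. The 10 hepatocyte markers summed to between 77750 and 150800 CPM in every liver. Summed over 12 genes, Kupffer cell and macrophage markers reached 138 to 371 CPM in Het and 197 to 600.5 CPM in KO livers, and neutrophil and myeloid markers 0.52 to 3.32 CPM in Het and 5.54 to 12.7 CPM in KO livers (10 genes, of which Ly6g, Mpo and Camp had at most 3 counts in every liver). Stellate cell and fibroblast markers summed to 265 to 476 CPM in Het and 132 to 285 CPM in KO livers (9 genes), and sinusoidal endothelium markers to 198 to 368 CPM and 142 to 261 CPM (8 genes). The part of these cell types in the results below was not tested, and in bulk RNA fewer cells of a type and less RNA per cell cannot be told apart.

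ATF4 and its partners bind a composite element, the CCAAT/enhancer-binding protein and activating transcription factor response element, which was searched as the letters TGATGNAA on either strand, from 250 bases before to 50 bases after each gene start. RefSeq promoters (build GRCm38.p6) were given for 9 of the 10 members (not for Cth), and 5 of these 9 held the letters. The letters were held by 4.51% of all genes with a given promoter and by 3.97% of all promoter windows of the same length. The matches before the start are printed here on the strand of the gene, 5′ to 3′, with the matching letters in capitals and with the coordinates in GRCm39 that the same bases have there. They include the members that differed most upward (Asns) and downward (Fgf21) between the genotypes. They also include Atf3 and Chac1, which were not called over both sexes, while Atf4, Gdf15 and Psat1 were called without a match. A match is a description and not a bound site.
Asns, chr6:7693210-7693247, minus strand, match 23 to 16 bases before the start: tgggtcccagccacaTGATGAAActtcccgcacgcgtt
Atf3, chr1:190915618-190915655, minus strand, match 110 to 103 bases before the start: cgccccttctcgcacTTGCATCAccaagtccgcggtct
Chac1, chr2:119181515-119181552, plus strand, match 193 to 186 bases before the start: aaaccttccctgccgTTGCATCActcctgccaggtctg
Fgf21, chr7:45265031-45265068, minus strand, match 139 to 132 bases before the start: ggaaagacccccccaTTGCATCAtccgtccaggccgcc
In Atf3, Chac1, Fgf21 and Trib3 the matching letters lie on the strand opposite to the gene. In Trib3 the match falls 15 to 22 bases after the start. No match in these windows was found for Atf4, Ddit3, Gdf15 or Psat1, which says only that the letters are not in these windows.

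The members did not move as 1 block. Over both sexes, 5 of the 10 were called higher in KO livers (Asns, Cth, Trib3, Psat1 and Atf4), 2 were called lower (the hormone genes Fgf21 and Gdf15) and 3 did not pass the test (Chac1, Atf3 and Ddit3), at an adjusted p under 0.05 in edgeR's quasi-likelihood F test with Benjamini-Hochberg adjustment over all genes tested. Of all genes tested, 11.8% were called higher and 9.80% lower in the same comparison. The median log2 fold change of the 10 members was 0.63, beside 0.02 over all genes tested. In females 3 members were called higher (Asns, Cth and Atf4) against 5.15% of all genes, and 1 was called lower (Fgf21) against 4.50% of all genes. In males 1 member was called higher (Psat1) against 4.11% of all genes. None was called lower in males by edgeR, by DESeq2 or by limma, where 0 had an unadjusted p under 0.05 in that direction and 2.80% of all genes were called lower. For none of the 10 did the 6 KO livers lie wholly above or wholly below the 6 Het livers, as 4.72% and 4.64% of all genes tested did. Within females, Asns, Cth, Trib3 and Atf4 were higher in each KO liver than in each Het liver (15.8% of all genes were), and Fgf21 and Gdf15 were lower (14.7% of all genes). Within males, Asns, Trib3 and Psat1 were higher in each KO liver (16.8% of all genes), and no member was lower in each KO liver (15.4% of all genes).

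**Figure D1:**
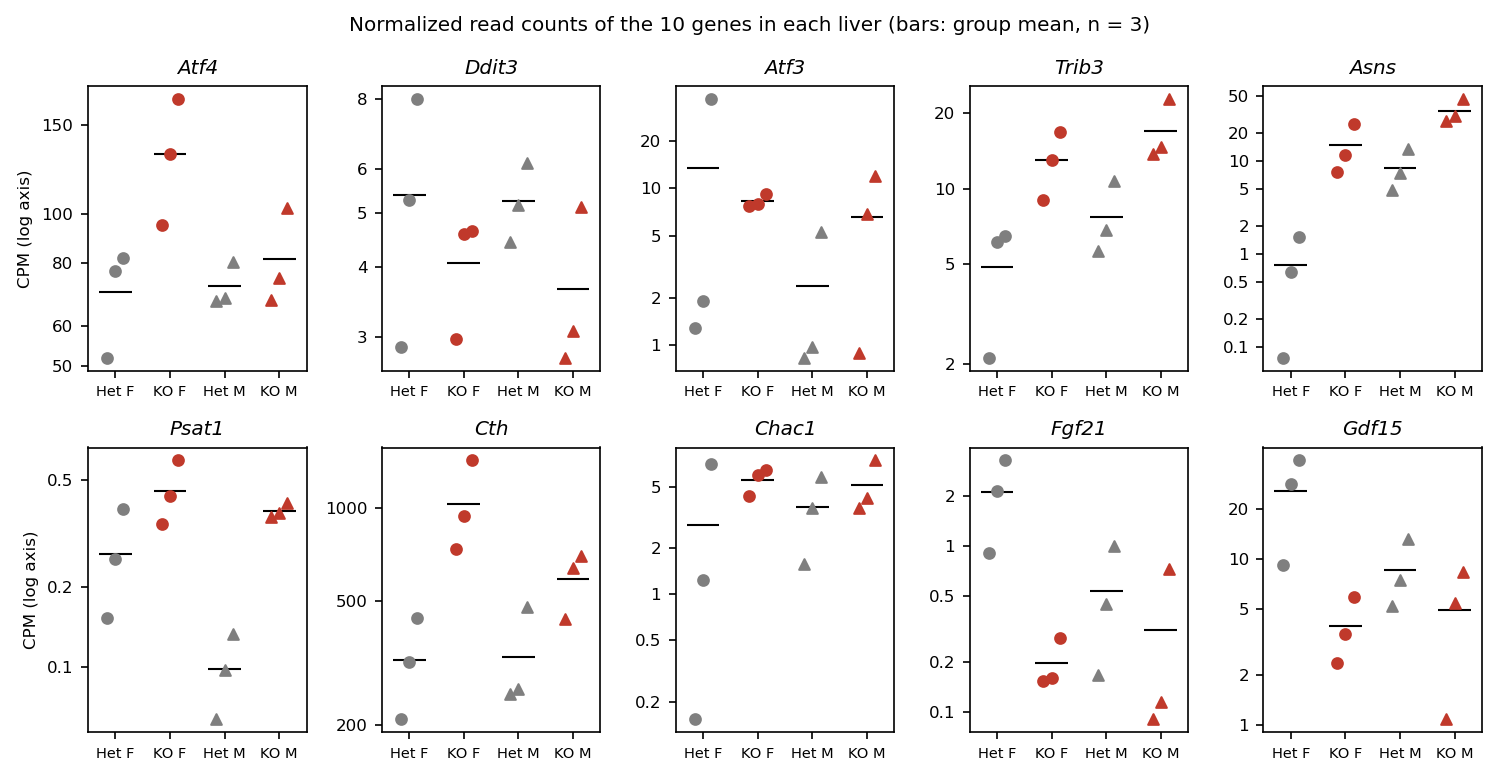
Normalized read counts (CPM, log axis, with a scale of its own for each gene) of the 10 genes in each of the 12 livers, by genotype and sex; points are livers and black bars are means of 3 livers. The Asns points run from 0.0765 to 46.1 CPM, Fgf21 and Gdf15 points of KO females lie below all Het females, and 1 Het female stands far above all other livers in Atf3 at 37.0 CPM.

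Atf4 (ENSMUSG00000042406.9, chromosome 15, 80139372 to 80141745, plus strand of GRCm39), the transcription factor at the center of the pathway, was measured at 81.8, 52.0 and 77.0 CPM in Het females and at 169, 131 and 94.9 CPM in KO females. Het males had 68.3, 80.4 and 67.4 CPM and KO males 74.6, 103 and 67.6 CPM. The groups were apart in females, while in males only 1 KO liver lay above the Het livers. Over both sexes Atf4 was 1.46-fold higher in KO (log2 fold change 0.54, SE 0.165, adjusted p = 0.0361), and in females alone 1.87-fold higher (log2 fold change 0.90, adjusted p = 0.0347). In males the log2 fold change was 0.18 with a 95% confidence interval of -0.33 to 0.69 (adjusted p = 0.696). The call over both sexes was lost in 3 of 14 other settings (adjusted p up to 0.0626). It was also lost in 9 of the 12 fits that each left out 1 mouse, where the log2 fold change ran from 0.42 to 0.63 and the adjusted p from 0.0157 to 0.0832. The call in females was lost in 7 of these 12 fits (adjusted p up to 0.129) and in 3 of 14 other settings, and was kept without Het_M_119, Het_M_125, KO_F_123, KO_M_122 or KO_M_136.

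Ddit3 (ENSMUSG00000025408.16, chromosome 10, 127124268 to 127132163, plus strand) encodes CHOP, a factor induced by ATF4 that is known for promoting cell death under lasting stress. Its levels were 5.27, 2.88 and 7.99 CPM in Het females, 4.65, 4.58 and 2.98 CPM in KO females, 4.44, 5.17 and 6.14 CPM in Het males and 3.08, 5.13 and 2.76 CPM in KO males. All groups overlapped, with the lowest Het female below 5 of the 6 KO livers. KO and Het differed by a log2 fold change of -0.46 over both sexes (SE 0.248, adjusted p = 0.207), and in none of the other settings or left-out fits did it pass the test.

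Atf3 (ENSMUSG00000026628.14, chromosome 1, 190902493 to 190950241, minus strand), an early stress-induced transcription factor, varied widely from liver to liver within a group. Het females had 37.0, 1.91 and 1.30 CPM and Het males 5.30, 0.976 and 0.831 CPM. KO females had 7.99, 7.77 and 9.14 CPM, which lie close together, and KO males 6.90, 12.0 and 0.899 CPM. Of the 6 KO livers 5 were therefore above 5 of the 6 Het livers, with Het_F_111 and KO_M_136 as the exceptions. The log2 fold change over both sexes was 0.39 with a 95% confidence interval of -1.58 to 2.36 (adjusted p = 0.792). Without Het_F_111 it was 1.89, again not called, and in females it turned from -0.68 to 2.32 (adjusted p = 0.211, beside 0.211 to 0.856 over the 12 fits with a mouse left out). That liver was also the highest Het liver in 7 of 9 immediate-early genes, which were chosen after their values were seen. The gap was widest in Fosb (5.10 CPM against at most 1.001 CPM in the other Het livers) and Jun (152 against 70.3 CPM). It was slight in Ier3 (1.01 against 0.995 CPM) and Dusp1 (82.0 against 77.6 CPM), and in Junb and Myc another Het liver was higher. KO livers reached higher values than Het_F_111 in Fos, Egr1, Ier2, Ier3, Junb and Myc, and not in Fosb, Jun or Dusp1.

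Trib3 (ENSMUSG00000032715.10, chromosome 2, 152179337 to 152191958, minus strand), a pseudokinase induced by ATF4 that feeds back on it, was higher in KO livers of both sexes. Het females had 6.45, 2.12 and 6.11 CPM against 16.9, 9.04 and 13.0 CPM in KO females. Het males had 6.87, 5.63 and 10.7 CPM against 22.8, 13.7 and 14.6 CPM in KO males. Within each sex the genotypes were apart, and over both sexes only the lowest KO female fell below the highest Het male. Trib3 was 2.40-fold higher in KO (log2 fold change 1.26, SE 0.285, adjusted p = 0.0109). The log2 fold changes of the sexes, 1.40 in females (adjusted p = 0.0526) and 1.13 in males (adjusted p = 0.12), were close to each other and neither passed the test on its own. The call over both sexes was kept in all 12 fits with a mouse left out, with a log2 fold change of 1.08 to 1.41.

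The 3 members that make amino acids were all called higher in KO livers over both sexes. Asns (ENSMUSG00000029752.13, chromosome 6, 7671667 to 7728461, minus strand), which encodes asparagine synthetase and is among the best known targets of ATF4, had the largest fold change of the 10 members. Het females had 0.648, 0.0765 and 1.53 CPM, which rest on 23, 3 and 71 counts, against 24.9, 11.4 and 7.64 CPM in KO females. Het males had 13.2, 7.32 and 4.86 CPM against 46.1, 30.0 and 26.6 CPM in KO males. Each KO liver lay above each Het liver of the same sex, but the highest Het male lay within the range of the KO females, so the genotypes overlapped when the sexes were put together. Asns was 8.46-fold higher in KO over both sexes (log2 fold change 3.08, 95% confidence interval 1.94 to 4.22, adjusted p = 0.00334) and 17.8-fold higher in females (log2 fold change 4.15, SE 0.769, adjusted p = 0.0144). In males the log2 fold change was 2.01 (95% confidence interval 0.50 to 3.52, adjusted p = 0.11), which did not pass the test. The call over both sexes held in all 12 fits with a mouse left out, between 2.76 and 3.57. The female fold rests on few counts in the Het livers. Its log2 value ran from 3.52 to 5.15 with a mouse left out, the highest without Het_F_126, and was 2.30 by limma on log2(TPM + 1). The female call held in all 12 of these fits and was lost in the fit on females alone (adjusted p = 0.0685).

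Psat1 (ENSMUSG00000024640.10, chromosome 19, 15882039 to 15924701, minus strand), an enzyme of serine synthesis, was barely expressed, with 2 to 22 counts in any liver. Het females had 0.254, 0.153 and 0.389 CPM and KO females 0.341, 0.433 and 0.590 CPM, which overlap. Het males had 0.133, 0.0976 and 0.0640 CPM and KO males 0.362, 0.408 and 0.377 CPM, which do not. The fold change was 2.12 over both sexes (log2 fold change 1.09, SE 0.254, adjusted p = 0.0116) and 2.84 in males (log2 fold change 1.51, SE 0.374, adjusted p = 0.0335). In Het males these levels rest on 4, 3 and 2 counts. The call in males was lost in 6 of the 12 fits with a mouse left out, those without any 1 of the males (adjusted p up to 0.11), and in 3 of 12 other settings.

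Cth (ENSMUSG00000028179.13, chromosome 3, 157599868 to 157630739, minus strand) encodes cystathionine gamma-lyase, which makes cysteine in the transsulfuration pathway, and was the most abundant member. Het females had 319.6, 441 and 208.5 CPM against 1421, 938 and 736 CPM in KO females. Het males had 479.6, 252.5 and 261 CPM against 698, 438 and 638 CPM in KO males. Females of the 2 genotypes were apart, and in males only KO_M_122 lay below the highest Het male. Cth was 2.39-fold higher in KO (log2 fold change 1.26, SE 0.247, adjusted p = 0.0053), 3.19-fold in females (log2 fold change 1.68, adjusted p = 0.0173), and differed in males by 0.84 on the log2 scale (95% confidence interval 0.08 to 1.59, adjusted p = 0.17). Leaving out any 1 mouse kept the call over both sexes, with a log2 fold change of 1.09 to 1.43, while the call in females was lost without Het_F_111, Het_F_126 or KO_F_108 (adjusted p up to 0.064).

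Chac1 (ENSMUSG00000027313.4, chromosome 2, 119180757 to 119184866, plus strand) encodes an enzyme that degrades glutathione and is induced by ATF4. KO livers were close to each other, with 5.92, 6.38 and 4.32 CPM in females and 7.40, 4.22 and 3.65 CPM in males. Het livers were spread widely, with 7.07, 0.153 and 1.23 CPM in females and 5.80, 3.61 and 1.57 CPM in males. The log2 fold change over both sexes was 0.72 (95% confidence interval -0.70 to 2.15, adjusted p = 0.457). Without Het_F_111, the liver that was also high in Atf3, it was 1.67 and passed the test (adjusted p = 0.0346), and it did not in the other 11 fits (adjusted p up to 0.65).

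The hormone genes moved the other way. Fgf21 (ENSMUSG00000030827.6, chromosome 7, 45263301 to 45266963, minus strand), whose product is secreted by the liver in fasting and amino acid shortage, had 2.14, 3.29 and 0.907 CPM in Het females and 0.155, 0.279 and 0.161 CPM in KO females. Het males had 0.167, 1.008 and 0.448 CPM and KO males 0.0906, 0.728 and 0.116 CPM. In females each KO liver was below each Het liver, and in males the genotypes overlapped. Counts were low, from 4 to 129 in any liver. Fgf21 was 3.76-fold lower in KO over both sexes (log2 fold change -1.91, SE 0.53, adjusted p = 0.0258) and 8.54-fold lower in females (log2 fold change -3.09, SE 0.765, adjusted p = 0.0304). In males the log2 fold change was -0.73 (95% confidence interval -2.31 to 0.86, adjusted p = 0.599). The call over both sexes was lost in 6 of 12 fits with 1 mouse left out, with an adjusted p of at most 0.0759 and a log2 fold change of -2.50 to -1.56. The call in females was lost in 5 of the 12, those without Het_F_111, Het_F_115 or any 1 of the KO females (adjusted p up to 0.108).

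Gdf15 (ENSMUSG00000038508.8, chromosome 8, 71082038 to 71091537, minus strand) encodes a stress hormone that lowers food intake through its receptor GFRAL in the hindbrain. Het females had 28.3, 39.6 and 9.26 CPM against 2.35, 5.94 and 3.54 CPM in KO females. Het males had 13.2, 5.24 and 7.45 CPM against 8.33, 5.45 and 1.07 CPM in KO males. The genotypes were apart in females and overlapped in males. Gdf15 was 3.34-fold lower in KO over both sexes (log2 fold change -1.74, SE 0.512, adjusted p = 0.0374). In females the log2 fold change of -2.69 just missed the threshold (adjusted p = 0.0504), and in males it was -0.79 (95% confidence interval -2.37 to 0.80, adjusted p = 0.558). With 1 mouse left out the call over both sexes was lost in 7 of 12 fits, with a log2 fold change of -2.05 to -1.51 and an adjusted p of at most 0.0852.

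**Figure D2:**
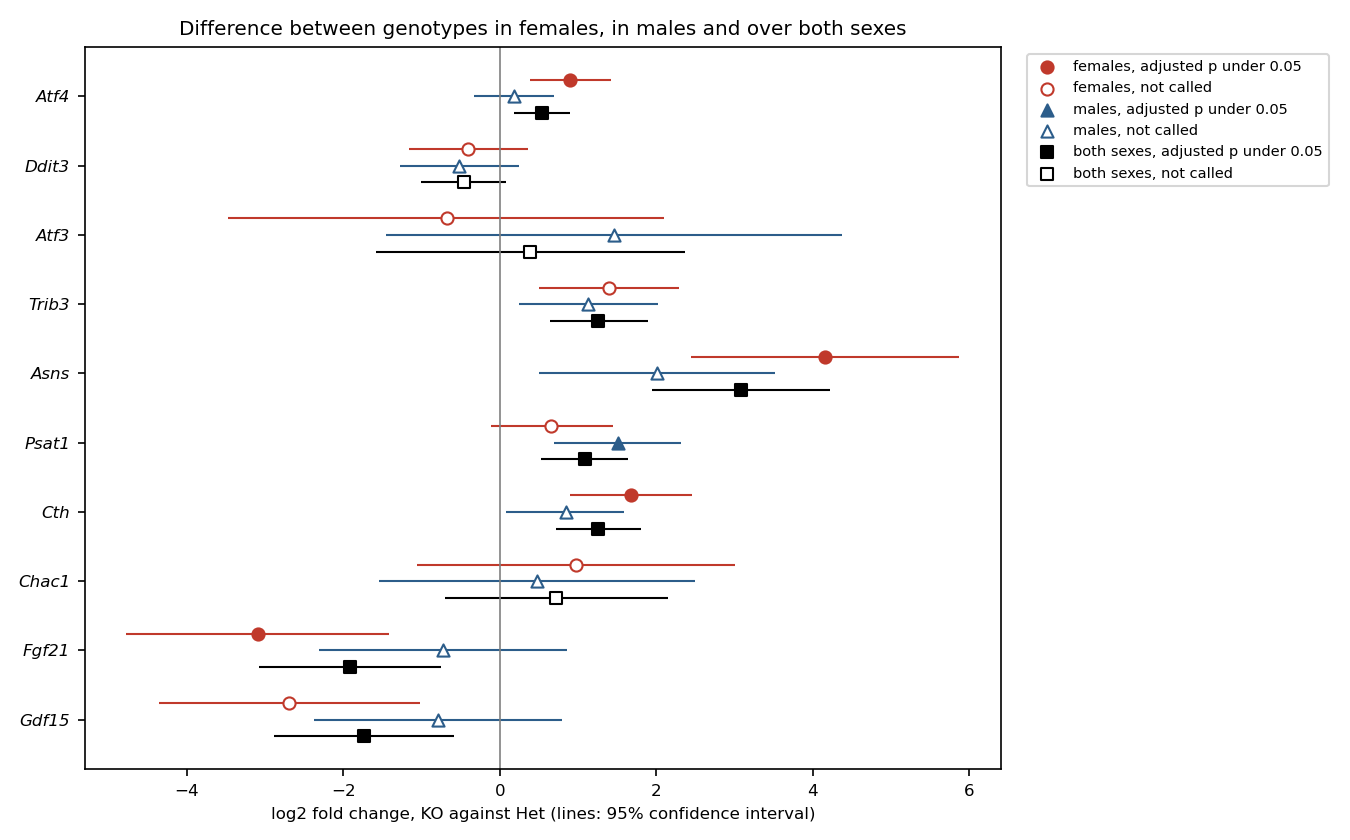
Log2 fold change of KO against Het (horizontal axis) for the 10 genes in females, in males and over both sexes, with 95% confidence intervals as lines and filled symbols where the adjusted p was under 0.05. Over both sexes 5 filled squares lie to the right of 0 and 2, Fgf21 and Gdf15, to the left, and the intervals of Atf3 and Chac1 are the widest among those not called.

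Compared per transcript length, on the TPM scale, Cth was the highest member and Atf4 the second in every group, and each was apart from the member below it. Cth reached 160 ± 54.7 TPM in Het females, 525.6 ± 222 TPM in KO females, 140 ± 48.2 TPM in Het males and 276 ± 72.7 TPM in KO males (mean ± SD, n = 3 each). Atf4 reached 33.8 ± 7.58, 61.1 ± 21.6, 30.0 ± 2.84 and 36.2 ± 7.44 TPM in the same order. The third place was held by Gdf15 in Het females, at 15.9 ± 9.48 TPM, and by Asns in KO females, at 6.50 ± 4.81 TPM, and in both groups its range overlapped that of the next member. Asns was the ninth of the 10 in Het females, at 0.356 ± 0.278 TPM, and the third in KO males, at 14.5 ± 5.32 TPM, where it was apart from Trib3 at 6.58 ± 2.01 TPM. Psat1 was the lowest member in every group, at 0.169 TPM or less on average. Between the second and the last place, most neighbors in the Het groups overlapped.

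Whether the effect of genotype differed between the sexes was tested by the interaction of both factors. None of the 10 members was called by edgeR, by DESeq2 or by limma, and edgeR called 0.0465% of all genes. At an unadjusted p under 0.05 there were 3 members, beside 1728 of all 19350 genes tested. For these 3, the male difference less the female difference was -2.14 on the log2 scale for Asns (SE 0.953), -0.72 for Atf4 (SE 0.33) and 2.37 for Fgf21 (SE 1.08), each with an adjusted p of 0.558. So the members called in 1 sex and not in the other were not shown to differ between the sexes. Males were compared with females over both genotypes as well, where edgeR called none of the 10 and 0.925% of all genes. Here 2 members had an unadjusted p under 0.05, beside 2606 of all 19350 genes tested. Asns was 4.91-fold higher in males (log2 fold change 2.30, SE 0.497, adjusted p = 0.0741), a difference that DESeq2 and limma called, and Psat1 had a log2 fold change of -0.65 (adjusted p = 0.269).

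The livers did not keep 1 order across the members. Het_F_115 was the lowest of all 12 livers in Asns, Atf4, Trib3 and Chac1, at 0.0765 CPM in Asns and 0.153 CPM in Chac1, and the highest of all 12 in Fgf21 and Gdf15. KO_M_118 was the highest of the 12 in Asns, Trib3 and Chac1 and the lowest in Fgf21. KO_M_136 was the lowest of its group in 6 members and held the lowest Gdf15 and Ddit3 of all livers. KO_F_108 had the highest Atf4 and Cth of all livers and the lowest Gdf15 of its group. Het_F_111 was highest of all in Atf3, and highest of the Het females in Atf4, Trib3 and Chac1 too. These ranks describe the livers and were not tested.

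**Figure D3:**
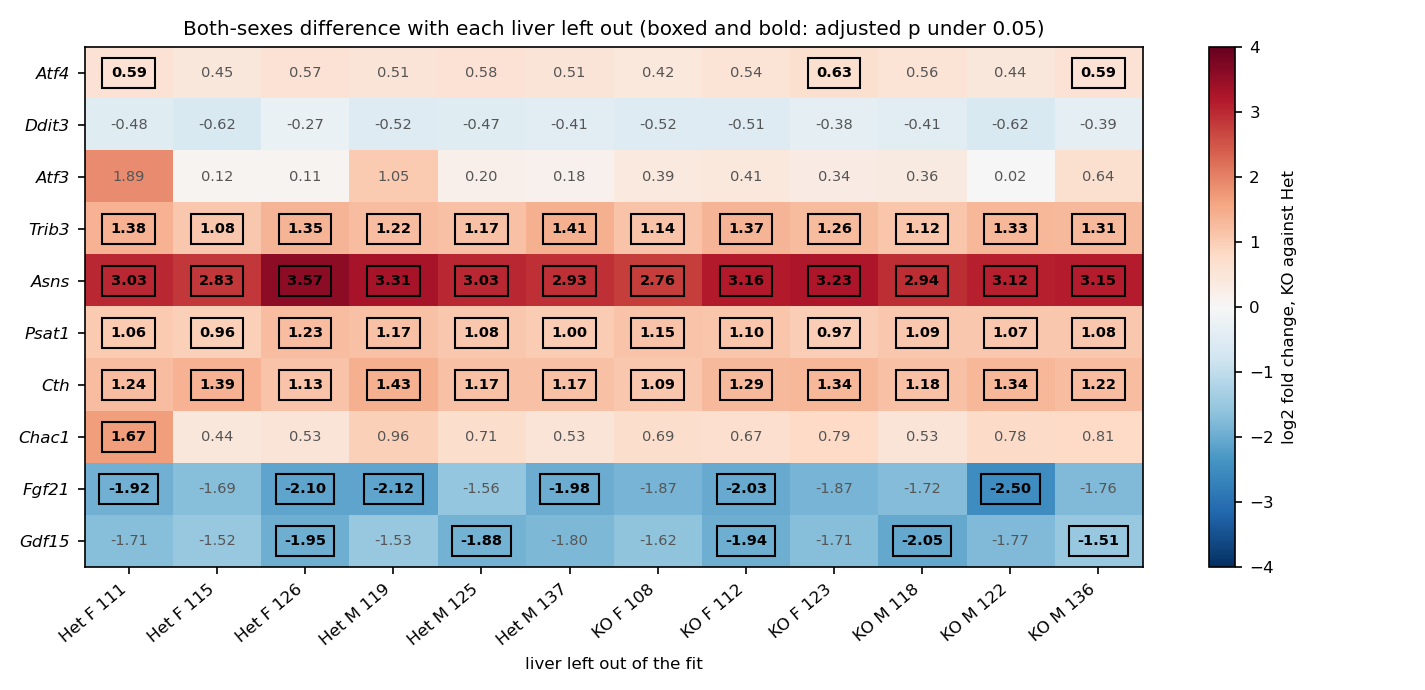
Log2 fold change of KO against Het over both sexes for each gene (rows) with each liver left out in turn (columns); color gives the size, and boxed bold values had an adjusted p under 0.05. The rows of Asns, Trib3, Psat1 and Cth are boxed throughout, those of Atf4, Fgf21 and Gdf15 in part, and Chac1 is boxed only without Het_F_111.

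The wider pathway was read from 5 lists of 85 genes without the members, of which 84 were tested. Over both sexes 11 of the 84 were called higher, beside 11.8% of all genes, and 2 lower, beside 9.80%, and their median log2 fold change was 0.09 beside 0.02 over all genes. The rises were uneven between the lists, and the call counts are a description without a test of the lists. Among amino acid transporters 5 of 12 were called higher, with none lower by edgeR, DESeq2 or limma and 0 at an unadjusted p under 0.05 in that direction. The neutral amino acid carrier Slc1a5 had a median of 1.74 CPM in Het livers (1.59 to 2.45) and of 3.92 CPM in KO livers (3.03 to 5.64), with all KO livers higher (2.14-fold, SE 0.174 on the log2 scale, adjusted p = 0.00161). Slc1a4, a carrier of alanine and serine, went from a median of 4.12 to 9.68 CPM with overlap (log2 fold change 0.94, adjusted p = 0.00355). Among genes of serine, glycine, proline and one-carbon synthesis 3 of 13 were called higher, and none lower by any of the 3 tools, where again 0 passed at an unadjusted p under 0.05. Mthfd1l, a mitochondrial folate enzyme, was at 1.17 to 2.73 CPM in Het and 5.05 to 11.6 CPM in KO livers, without overlap (log2 fold change 2.05, SE 0.28, adjusted p = 0.000746). Pck2, the mitochondrial phosphoenolpyruvate carboxykinase and a target of ATF4, rose by 0.73 on the log2 scale (adjusted p = 0.0193).

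In the remaining 3 lists few genes were called over both sexes, where 11.8% of all genes were called higher and 9.80% lower. Of 18 partner transcription factors and stress regulators only Ddit4 was called by edgeR, an inhibitor of mTORC1 that ranged from 0.911 to 12.5 CPM in Het and from 10.5 to 270 CPM in KO livers (log2 fold change 3.17, SE 0.626, adjusted p = 0.00745). Its mean was 179 CPM in KO females and 19.2 CPM in KO males. The log2 fold change was 4.54 in females (adjusted p = 0.0207) and 1.80 in males (adjusted p = 0.236), and the interaction was not called (adjusted p = 0.551). None of the 18 was called lower by edgeR or limma, with 1 called by DESeq2 and 3 at an unadjusted p under 0.05. Of 21 cytosolic aminoacyl-tRNA synthetase and transport genes, many of them known targets of ATF4, Vars1 was called higher (log2 fold change 0.42, adjusted p = 0.00251, all KO livers above all Het livers), while Aars1 was called lower (log2 fold change -0.46, adjusted p = 0.00359). Of 20 genes for the eIF2 kinases, eIF2, its exchange factor and its phosphatase, 1 was called higher over both sexes by edgeR, the kinase gene Eif2ak4, and none lower by edgeR or limma (1 by DESeq2, and 2 at an unadjusted p under 0.05). In the higher direction limma called none with either pseudocount, DESeq2 called 2, and 3 had an unadjusted p under 0.05. Within the sexes edgeR called 2 of the 20, which are named here after their values were seen and encode partners of the phosphatase that acts on eIF2. Ppp1r15a was higher in females (log2 fold change 1.46, adjusted p = 0.0455) and Ppp1r15b lower in males (log2 fold change -0.64, adjusted p = 0.028), and neither was called for the interaction (adjusted p = 0.54 and 0.464). Of all genes, 5.15% were called higher in females and 2.80% lower in males.

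The 4 kinases of eIF2 were looked at one by one. Eif2ak4 encodes GCN2, the sensor of amino acid shortage, and had 14.1 ± 1.86 CPM in Het and 17.7 ± 2.47 CPM in KO livers (mean ± SD, n = 6 each), with overlap (log2 fold change 0.33, SE 0.101, adjusted p = 0.0368). Eif2ak4 was called in neither sex alone (adjusted p = 0.468 in females and 0.0641 in males), and over both sexes not by limma. Eif2ak3, which encodes PERK, the sensor in the endoplasmic reticulum, had 21.8 ± 9.67 and 27.2 ± 6.52 CPM (log2 fold change 0.32, adjusted p = 0.344). Eif2ak1, for the heme-regulated kinase HRI, was at 33.5 ± 3.17 and 33.5 ± 3.94 CPM, with a 95% confidence interval of the log2 fold change of -0.20 to 0.21. Eif2ak2, for the double-stranded RNA sensor PKR, was at 20.6 ± 3.23 and 17.4 ± 2.17 CPM (log2 fold change -0.25, adjusted p = 0.164). RNA levels do not show the activity of these kinases.

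**Figure D4:**
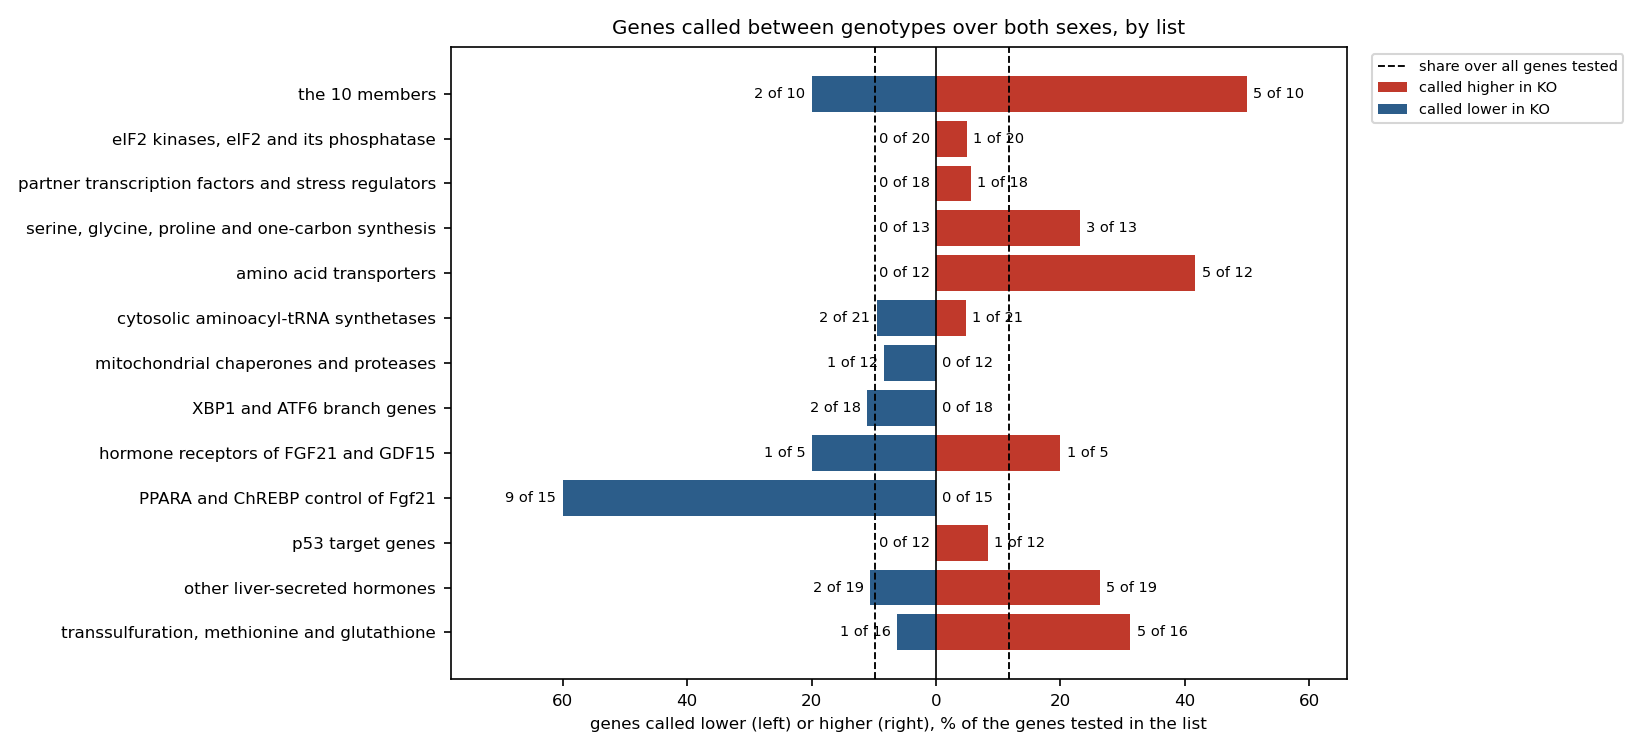
Genes called lower (left) or higher (right) in KO livers over both sexes, as % of the genes tested in each list, with dashed lines at the 9.80% and 11.8% of all genes tested that were called. Among the lists whose bars pass the line for higher calls are the 10 genes (5 of 10) and the amino acid transporters (5 of 12), and 9 of 15 genes around the control of Fgf21 were called lower.

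Genes around other controls of Fgf21 were also read from a list. PPARA, the fasting-activated nuclear receptor, and the carbohydrate sensor ChREBP both drive Fgf21 in liver. The list holds 15 genes around these regulators, among them also Nr1h4, a further receptor gene. Of the 15, 9 were called lower by edgeR, beside 9.80% of all genes, and none higher, beside 11.8%. In the higher direction 1 was called by DESeq2, 1 by limma and 1 had an unadjusted p under 0.05. The median log2 fold change was -0.68. Whether these genes have a part in the lower Fgf21 was not tested. Ppara itself had a median of 216 CPM in Het and 76.5 CPM in KO livers (log2 fold change -1.37, SE 0.227, adjusted p = 0.0023). Nr1h4, the bile acid receptor FXR, was at 92.1 to 112.2 CPM in Het and 25.2 to 61.4 CPM in KO livers (log2 fold change -1.03, adjusted p = 0.00146). Neither gene's ranges overlapped between the genotypes, unlike those of Fgf21. In females 7 of the 15 were called lower, beside 4.50% of all genes, and in males 3, beside 2.80%. Of the receptors of the 2 hormones, 5 of 7 genes were expressed enough to be tested in liver. Of these, 1 was called higher in KO, beside 11.8% of all genes, and 1 lower, beside 9.80%. Fgfr1 was higher (log2 fold change 1.21, adjusted p = 0.0252), at 4.34 to 37.4 CPM in Het and 16.9 to 37.8 CPM in KO livers. Fgfr3 was lower (log2 fold change -0.55, adjusted p = 0.0245), and it overlapped between the genotypes as well.

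Around Cth and Chac1, 16 further genes of transsulfuration, methionine and glutathione metabolism were read, and 5 were called higher, beside 11.8% of all genes, and 1 lower, beside 9.80%. Mat1a, which makes S-adenosylmethionine in the liver, went from a median of 2779 to 6146 CPM (log2 fold change 1.20, SE 0.189, adjusted p = 0.00161). Gss, the last enzyme of glutathione synthesis, was at 46.5 to 62.6 CPM in Het and 64.2 to 77.6 CPM in KO livers (log2 fold change 0.43, adjusted p = 0.00723). Csad, which turns cysteine sulfinic acid toward taurine, was the gene called lower, at 45.0 to 277.5 CPM in Het and 19.0 to 44.0 CPM in KO livers (log2 fold change -2.34, SE 0.411, adjusted p = 0.00416).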

How the data were processed

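The authors sequenced ribosomal RNA-depleted, stranded libraries as paired reads, aligned them to GRCm39 with STAR (2.7.9a) and estimated reads per GENCODE M34 gene with Salmon (1.10.1). They deposited 3 tables of estimated counts, of which the unscaled one was used here after rounding to whole numbers (12% of values were not whole), and 1 table of TPM, in which the authors divided by transcript length and scaled each library to 1e+06. TPM keeps no depth. Samples were grouped by the genotype and sex in their labels, each being 1 mouse. Single livers are named as Het_F_111 by genotype, sex and mouse.

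Genes reaching 5 reads, scaled to the median library, in 3 or more livers were tested with edgeR (4.0.16, R 4.3.3) with quasi-likelihood F tests (robust estimation, prior count of 2, TMM scaling) in a fit of the 4 group means to all 12 livers. The both-sexes value is the mean of the log2 fold changes of the sexes. Calls used a Benjamini-Hochberg adjusted p under 0.05 over all 19350 genes. SE was derived from the F statistic, and 95% confidence intervals from the same fit. The fit was tested on simulated counts. CPM, unlike TPM, is not divided by length. With 3 mice a group, precision is set by the spread between mice, and at few counts also by counting error.

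The members and gene lists were chosen with earlier results of these data known. Beside the members, Xpa and Ercc8, the eIF2 kinase genes and, from each list, the 2 genes with the smallest p in each direction among those called were named, except for a gene that is not reported here, and other list genes were counted. Lists hold 183 symbols, 15 of which were matched by identifier through GENCODE M39 since the tables carry older symbols. No column outside these 12 livers was found. Gene coordinates come from GENCODE M39. Alternatives were no rounding, the other count tables, other filters, other scalings, no robust estimation, DESeq2 (1.42.0), limma (3.58.1) on log2(TPM + 1) and log2(TPM + 0.1), a model without interaction, fits on 1 sex and leaving out each mouse. The newer quasi-likelihood method of edgeR was added after seeing the data.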

Additional observations from a re-analysis of the deposited data

Results flagged for a closer look

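In 3 members 1 liver was marked as apart from the rest of its genotype by Dixon's test on 6 livers (a gap over 0.625 of the range). Among the 20 sets of livers looked at, about 1 in 20 would be marked by chance if values were normally distributed. Whether this holds for CPM of livers of both sexes was not tested, so the marks are a description. Atf3 in Het_F_111 was at 37.0 CPM, with the next Het liver at 5.30 CPM (gap 0.876 of the range). Fgf21 in KO_M_122 was at 0.728 CPM, with the next KO liver at 0.279 CPM (gap 0.705), and without this liver the log2 fold change over both sexes was -2.50. Psat1 in KO_F_123 was at 0.590 CPM, with the next KO liver at 0.433 CPM (gap 0.628), which is barely over the limit and rests on 22 against 14 counts.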

How the results depend on the processing

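Over both sexes, Asns, Cth, Trib3 and Psat1 kept their call and direction with every mouse left out in turn and under every other setting in which they were tested. The genome-wide count of 4175 stayed within 1.5 times in all settings for that comparison. With each mouse left out the members called higher numbered 4 to 6 and those called lower 0 to 2, and fewer mice enter these fits. Members called higher numbered 4 with the scaled counts, by limma with either pseudocount and in the model without interaction. Members called lower numbered 1 with no filter on low counts, 1 with at least 10 reads in every liver and 1 in the model without interaction. With at least 10 reads in every liver 3 members were called higher, since Asns, Chac1, Fgf21 and Psat1 were then not tested. Of the wider lists, 7 genes were called higher with no filter. DESeq2 called 16 higher and 4 lower, and with a mouse left out 5 to 13 were called higher and 2 to 5 lower.

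In females the members called lower became 2, with Gdf15 added, without rounding, with length-scaled counts, with library size only, with upper quartile scaling, with no robust estimation, with the newer quasi-likelihood method, with DESeq2 and with limma on log2(TPM + 1), and ranged from 0 to 2 with a mouse left out. Those called higher were 0 in the fit on females alone, where 423 genes were called (3174 by DESeq2), and 1 to 3 with a mouse left out, where all calls ran from 699 to 2549. In males the members called higher were 0 with the length-scaled and the scaled counts, with no filter and with at least 10 reads in every liver, 2 by DESeq2 and in the fit on males alone, and 0 to 2 with a mouse left out. DESeq2 called 2260 genes in males, and with a mouse left out 487 to 1759 were called. For the interaction, 20 genes were called with no filter, 14 with at least 10 reads in every liver, 17 with relative log expression scaling, 22 with no robust estimation, 162 by DESeq2, 48 and 30 by limma on log2(TPM + 1) and log2(TPM + 0.1), and 4 to 82 with a mouse left out. Between the sexes 1 member, Asns, was called with the length-scaled and the scaled counts, with no robust estimation, by DESeq2 and by limma with either pseudocount, and 0 to 1 with a mouse left out. All calls between the sexes numbered 102 with at least 10 reads in every liver, 725 by DESeq2 and 101 to 308 with a mouse left out.

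Directions turned only in values that were not called. Atf3 in females was 0.34 and 0.74 on the log2 scale by limma with the larger and the smaller pseudocount, and -1.24 to 2.32 with a mouse left out. Atf4 in males ranged from -0.02 to 0.29. For the interaction, Ddit3 was 0.04 with library size only and -0.51 to 0.18 with a mouse left out, Trib3 -0.53 to 0.10, Chac1 -2.41 to 0.06 and Atf3 -0.87 to 3.49. The causes were not tested. Psat1 and, in Het females, Asns rest on so few counts that their folds are imprecise at this depth. No paired analysis was possible because each mouse number occurs in 1 group only.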

Other observations

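Other hormones secreted by the liver were read from a list of 19 genes, of which 5 were called higher, beside 11.8% of all genes, and 2 lower, beside 9.80%, over both sexes. Lcn2, an iron-binding protein of the acute phase, ranged from 0.959 to 20.8 CPM in Het and from 92.3 to 191 CPM in KO livers (log2 fold change 4.68, SE 0.479, adjusted p = 0.000317). Fgl1 was at 39.0 to 316 CPM in Het and 393 to 680 CPM in KO livers (log2 fold change 1.78, adjusted p = 0.0036). The activin subunit genes Inhbe (22.7 to 59.8 CPM in Het and 0.588 to 8.60 CPM in KO livers, log2 fold change -3.60, adjusted p = 0.000764) and Inhbc (log2 fold change -1.80, adjusted p = 0.00765) were called lower, and all of their KO livers lay below all Het livers, which was not so for Fgf21 and Gdf15.

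Of 18 genes of the XBP1 and ATF6 branches of the unfolded protein response, 2 were called lower over both sexes by edgeR, beside 9.80% of all genes. They were the chaperone gene Hsp90b1 (log2 fold change -0.57, adjusted p = 0.00743) and Pdia6 (-0.55, adjusted p = 0.0126). DESeq2 called 7 lower, and 9 were lower at an unadjusted p under 0.05. Over all genes and in either direction, DESeq2 called 5045, and 6853 of 19350 had an unadjusted p under 0.05. None of the 18 was called higher by edgeR, DESeq2 or limma, with 0 at an unadjusted p under 0.05 in that direction. Their median log2 fold change was -0.41 over both sexes and -0.65 in males, where 3 of the 18 were called lower, beside 2.80% of all genes. In females the median was -0.04. Of 12 mitochondrial chaperones and proteases, 1 was called lower, beside 9.80% of all genes, which was Trap1 (log2 fold change -0.39, adjusted p = 0.016). Of 12 p53 target genes, 1 was called higher, beside 11.8% of all genes, and their median log2 fold change was -0.08. The gene called was Sesn1 (log2 fold change 1.22, adjusted p = 0.000588), with all KO livers above all Het livers, as in 4.72% of all genes tested.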
